A study of Homo sapiens with 6 samples.

Results

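The ibrutinib-resistant and the idelalisib-resistant culture of the DAUDI line were set against each other, 1 library against 1. They are 2 of the 6 libraries of the series, taken by their titles and resistance labels. The series sequenced polyadenylated RNA of 2 human lymphoma cell lines from a cell bank, DAUDI for Burkitt lymphoma and DOHH2 for follicular lymphoma. Each line has a culture labelled WT, a culture resistant to idelalisib and a culture resistant to ibrutinib, with no replicate of any. The labels give no drug dose, selection time, number of clones or drug exposure at harvest. Both libraries compared therefore come from resistant cultures of one line, and neither is an untreated control.

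The B cell receptor signals through SYK and BTK to phospholipase C gamma, and through PI3K to AKT, and holds the FOXO transcription factors out of the nucleus while it does so. Ibrutinib blocks the kinase BTK, and idelalisib blocks p110delta, the PI3K subunit encoded by PIK3CD. A direct comparison of the resistant cultures asks which transcripts set apart the cells that were selected on BTK inhibition from those selected on PI3K delta inhibition.

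The libraries labelled WT were not used as a baseline. Over the 7864 genes tested, the library labelled DAUDI WT had a Pearson r of 0.992 with the one labelled DOHH2 WT. Its r was 0.744 with idelalisib-resistant and 0.718 with ibrutinib-resistant DAUDI, so it did not group with the line named on its label. Levels of the resistant DAUDI libraries had an r of 0.961 with each other, across genes, which are not independent replicates.

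Levels are in FPKM, fragment counts divided by transcript length and sequencing depth, summed over the isoforms of a gene. A difference is log2(FPKM + 1) in the ibrutinib-resistant minus that in the idelalisib-resistant library, a scale that understates changes of low genes. A gene was called higher or lower at a difference of 1, which is 2-fold on that scale. With 1 library a side there is no replicate error, no test and no p-value: a call says that these libraries differ, and it cannot be told apart from culture-to-culture variation.

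Of 7864 genes at 5 FPKM or more in one of the libraries and with an isoform of at least 300 nt, 177 were called higher (2.25%) and 50 lower (0.636%). The whole distribution was shifted: the median difference was 0.19 (SD 0.39 over genes), and 74.7% of genes lay above 0. The ibrutinib-resistant library was also deeper, with 1.37 times the coverage per FPKM of the idelalisib-resistant one, though FPKM is already divided by depth. Genes whose isoforms are all under 300 nt took 6.73% of its FPKM, against 16.9% in the idelalisib-resistant library. The part of either in the shift was not tested. Scaling by the median of ratios (1.15) moved the median to 0.01 and left 98 genes higher (1.25%) and 66 lower (0.839%). The share of calls that were higher went from 78.0% to 59.8%. All differences are therefore read against 0.19, and a call that ends after scaling is named as such. A gene that reached 5 FPKM in a single library was tested through the side where it is higher. For such genes the minimum itself favours a call on that side. At the edge of the call, C19orf10 (66.6 and 134 FPKM) and GMPPB (8.44 and 17.9 FPKM) lay just inside and KLHDC2 and KDELR2 (both 0.99) just outside. After scaling neither C19orf10 (0.80) nor GMPPB (0.81) was called. On the other side SNHG12 (22.9 and 11.0 FPKM) and MTRNR2L8 (10.7 and 4.82 FPKM) lay just inside and NSMF (-0.98) and C2orf47 (-0.97) just outside.

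**Figure D1:**
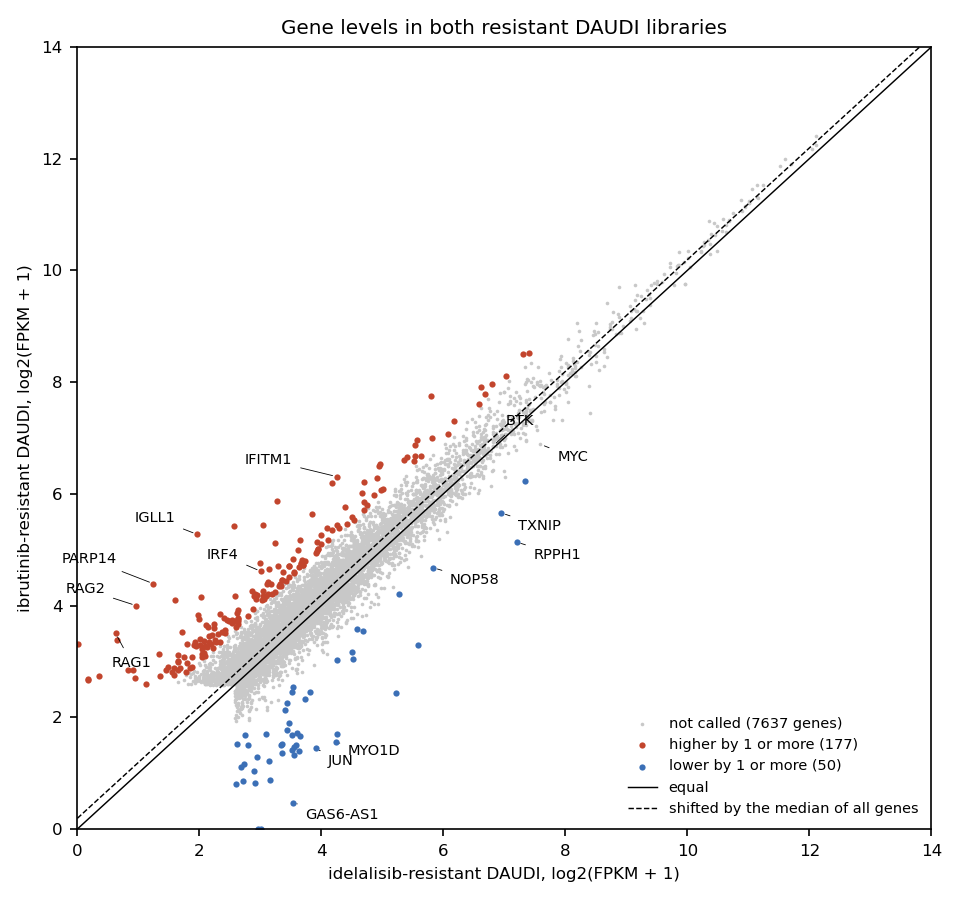
Levels of 7864 genes in idelalisib-resistant (x axis) and ibrutinib-resistant (y axis) DAUDI, 1 library each, in log2(FPKM + 1). Red and blue points are the 177 and 50 genes called higher and lower. The solid line marks equal levels and the dashed line the median difference of 0.19. IGLL1, PARP14, RAG1 and RAG2 stand far above the line, and JUN, MYO1D and GAS6-AS1 far below it.

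The transcripts of the drug targets were close in both cultures. BTK stood at 112 FPKM in the idelalisib-resistant and 115 FPKM in the ibrutinib-resistant library (difference 0.04). PIK3CD stood at 13.2 and 15.3 FPKM (0.20), and PLCG2, the phospholipase that BTK activates, at 85.5 and 103 FPKM (0.26). These values lie within 0.15 of the median shift. Transcript level says nothing of mutation or kinase activity, which were not measured.

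The defining B cell markers were present in both cultures. MS4A1 (CD20) stood at 192 and 209 FPKM, CD79A at 533 and 655 FPKM and PAX5, the B lineage factor, at 28.1 and 33.1 FPKM. None of the 13 receptor chains and co-receptors was called (median 0.02), and none of 23 receptor signalling genes (median 0.27). The germinal centre list (20 genes, median 0.23), the memory and activated B cell list (12, median 0.17) and the SRC and TEC family kinases (7, median 0.00) held no call either. T and NK cell markers summed to 4.77 and 6.53 FPKM over 22 genes and erythroid and platelet markers to 1.35 and 1.27 FPKM over 13, with no gene tested in either list. The 18 myeloid markers summed to 43.7 and 53.7 FPKM and the 17 stromal and epithelial markers to 7.61 and 20.6 FPKM. Of the myeloid markers, 5 were tested. CD33, a sialic acid receptor, was higher (2.29 and 10.6 FPKM) and CSF1R, the colony stimulating factor receptor, lower (5.73 and 2.20 FPKM). The other tested markers were present in both libraries and not called: LYZ (15.003 and 13.003 FPKM), LST1 (8.82 and 12.1 FPKM) and FCN1 (5.58 and 6.98 FPKM). CD14, which was not tested, was near 0 in both (0.103 and 0.0301 FPKM). ACTA2, a smooth muscle actin, was the single stromal marker tested (5.03 and 17.1 FPKM), and COL1A1 was near 0 (0.0371 and 0.0542 FPKM). In RNA of a whole culture, a change in the share of cells that express a gene and a change in RNA per cell cannot be told apart, and the part of such cells in other results was not tested.

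Genes of early B cell development were among the 15 highest. RAG1 and RAG2 encode the recombinase that cuts immunoglobulin loci in B cell precursors. RAG1 stood at 0.545 FPKM in the idelalisib-resistant and 10.4 FPKM in the ibrutinib-resistant library (difference 2.88). RAG2, its neighbour on chromosome 11 (hg19, chr11:36613493-36619829), stood at 0.953 and 15.01 FPKM (3.04). Their transcripts were thus scarce in one culture and at a moderate level in the other. IGLL1, the lambda-5 chain of the surrogate light chain, stood at 2.89 and 37.8 FPKM (3.32).

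The rest of the precursor programme held no call. VPREB1, the partner of IGLL1 in the surrogate light chain, stood at 18.7 and 20.4 FPKM (0.12), and VPREB3 at 562 and 857 FPKM (0.61). IGLL5, whose sequence is close to IGLL1, stood at 436 and 496 FPKM (0.18). DNTT, the polymerase that adds bases at recombination joints, was near 0 in both (0.044 and 0.118 FPKM). Of 16 genes of the recombinase and early B cell list 9 were tested, and 3 of these were called higher (33.3%, against 2.25% of all genes) and none lower (median 0.51). The same 3 were called after scaling. All 3 reached 5 FPKM in the ibrutinib-resistant library alone, so the minimum itself favoured higher calls.

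RAG1 and RAG2 are also textbook targets of FOXO factors. In the list of 21 tested FOXO genes they were the 2 called higher (9.52%, against 2.25% of all genes). A further 3 were called lower (14.3%, against 0.636% of all genes) and 16 neither. RAG1 and RAG2 reached 5 FPKM in the ibrutinib-resistant library alone and KLF2 in the idelalisib-resistant library alone. The minimum itself thus favoured the calls of these genes. The list median was 0.32, with 17 of 21 above the median of all genes and 4 below. The 3 lower calls also held after scaling. KLF2, which controls lymphocyte trafficking, stood at 5.41 FPKM in the idelalisib-resistant and 1.17 FPKM in the ibrutinib-resistant library (difference -1.56). TXNIP, an inhibitor of thioredoxin and of glucose uptake, stood at 123 and 49.5 FPKM (-1.30), and KLF6 at 24.7 and 10.7 FPKM (-1.14). FOXO1 itself stood at 26.9 and 32.7 FPKM (0.27) and FOXO3 at 6.77 and 8.68 FPKM (0.32). Among the other members, the insulin receptor gene INSR stood at 6.75 and 13.9 FPKM (0.95), the cell cycle inhibitor gene CDKN1B at 4.23 and 7.56 FPKM (0.71) and BCL2L11, the death activator BIM, at -0.36. Most members thus lay above the general shift, and the called ones lay on both sides of it.

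A broad set of interferon response genes was higher in the ibrutinib-resistant library. Type I and type II interferons act through JAK kinases and STAT factors, which switch on antiviral genes through a short promoter element. Of 31 tested genes in the list, 7 were called higher (22.6%, against 2.25% of all genes) and none lower. The list median was 0.74 against 0.19 for all genes, and 30 of 31 members lay above the median of all genes. After scaling 6 remained called, CMPK2 being lost, and the list median was 0.55.

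The promoters of 4 genes are shown because they carry that element: 3 of the called list members, and LGALS3BP, a secreted glycoprotein known to be interferon-inducible that is among the 15 highest genes. The sequences are RefSeq's, build GRCh38.p14, and cover the 250 bases before the annotated start, 5′ to 3′ on the gene's strand. Capitals mark each match to TTTCNNTTTC on either strand (N is any base).
PARP14: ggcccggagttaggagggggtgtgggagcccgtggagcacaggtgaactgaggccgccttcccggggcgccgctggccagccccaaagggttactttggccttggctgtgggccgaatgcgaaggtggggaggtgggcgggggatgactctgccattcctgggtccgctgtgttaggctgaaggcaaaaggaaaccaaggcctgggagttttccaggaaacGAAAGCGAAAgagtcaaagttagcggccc
IFITM1: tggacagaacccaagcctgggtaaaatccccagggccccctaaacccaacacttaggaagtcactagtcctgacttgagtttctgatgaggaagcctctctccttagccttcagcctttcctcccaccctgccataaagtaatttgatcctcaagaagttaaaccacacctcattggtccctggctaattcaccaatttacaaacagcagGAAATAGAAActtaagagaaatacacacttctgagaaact
IFI6: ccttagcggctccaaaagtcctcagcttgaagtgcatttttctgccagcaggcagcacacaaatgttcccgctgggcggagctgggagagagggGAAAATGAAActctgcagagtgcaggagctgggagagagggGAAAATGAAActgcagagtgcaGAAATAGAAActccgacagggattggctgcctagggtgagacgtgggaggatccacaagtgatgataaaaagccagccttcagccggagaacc
LGALS3BP: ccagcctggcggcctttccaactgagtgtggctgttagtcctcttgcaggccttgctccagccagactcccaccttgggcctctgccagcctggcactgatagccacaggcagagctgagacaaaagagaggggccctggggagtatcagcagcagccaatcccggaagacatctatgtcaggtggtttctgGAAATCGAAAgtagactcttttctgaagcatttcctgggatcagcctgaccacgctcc
These are chr3:122680589-122680838 on the plus strand, chr11:313790-314039 on the plus strand, chr1:27672193-27672442 on the minus strand and chr17:78979924-78980173 on the minus strand. The match begins 29 bases before the start of PARP14, 40 before IFITM1 and 58 before LGALS3BP. IFI6 has 3 matches, which begin 156, 115 and 93 bases before its start.

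The element is found in 3.71% of all 27305 gene promoters of this length and in 3.80% of the 6054 tested genes with an entry. Among genes called higher, 9 of 129 with an entry held it (6.98%). In the interferon list it was held by 3 of 5 called genes with an entry and by 12 of 19 that were tested and not called (63.2%). Holding the element therefore did not separate the called from the uncalled members. The E-box CACGTG was held by 8.53% of genes called higher and 12.3% of genes tested, and the forkhead letters GTAAACA by 5.43% and 3.04%. Both strands were searched for each, and a match is a description of letters only.

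PARP14, a mono-ADP-ribosyltransferase, stood at 1.37 FPKM in the idelalisib-resistant and 20.01 FPKM in the ibrutinib-resistant library (difference 3.15). PARP9 (1.69 and 1.24 FPKM) and DTX3L (0.895 and 0.590 FPKM), interferon-inducible genes that lie close to it on chromosome 3, were low in both. IFITM1, a membrane protein that blocks viral entry, stood at 18.03 and 78.3 FPKM (2.06) and IFI6 at 8.41 and 33.9 FPKM (1.89). LGALS3BP stood at 17.0 and 72.3 FPKM (2.02). XAF1 (5.23 and 14.2 FPKM) and the GTPase gene MX2 (14.98 and 37.3 FPKM) were also called.

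Classical members were higher by less. ISG15, the ubiquitin-like modifier, stood at 106 and 185 FPKM (0.79), IFI44L at 28.3 and 50.5 FPKM (0.81) and RSAD2 (viperin) at 9.08 and 17.7 FPKM (0.90). The oligoadenylate synthetase gene OAS2 stood at 102 and 129 FPKM (0.33), close to the shift of all genes. The idelalisib-resistant culture thus also carried many of these transcripts, and the members with the largest differences were not its most abundant ones.

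Of the signalling parts, STAT2 stood at 38.5 and 70.5 FPKM (0.86) and IRF9 at 15.6 and 25.8 FPKM (0.69). The receptor genes IFNAR1 (13.2 and 16.4 FPKM, 0.30) and IFNAR2 (19.4 and 23.9 FPKM, 0.29) followed the general shift. MHC class I presentation, which interferons also raise, held no call in 22 genes, with a median of 0.39. HLA-E stood at 121 and 224 FPKM (0.88). B2M, whose protein DAUDI cells are known to lack, stood at 350 and 458 FPKM (0.39). MHC class II presentation held no call in 19 genes (median 0.14).

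**Figure D2:**
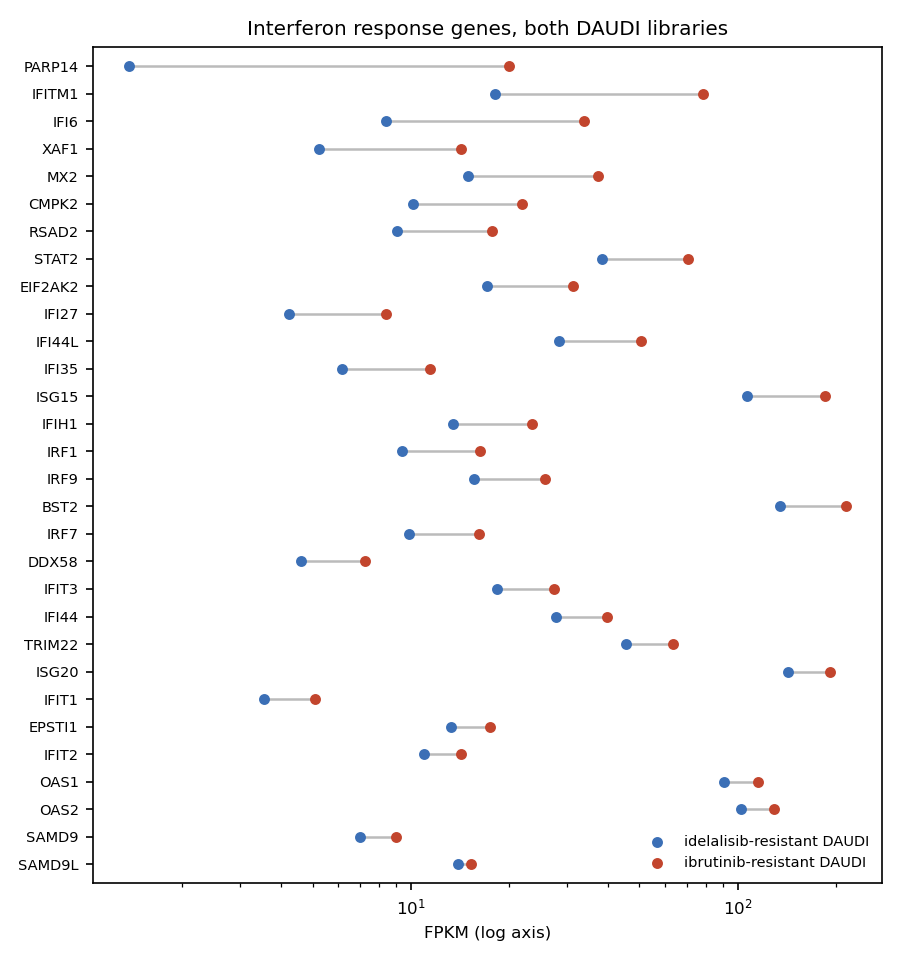
FPKM (log axis) of 30 of the 31 tested interferon response genes in idelalisib-resistant (blue) and ibrutinib-resistant (red) DAUDI, 1 library each, ordered by difference. The red point lies to the right of the blue one for every gene shown, from PARP14 (3.15) to SAMD9L (0.12).

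Genes of the secretory route and of endoplasmic reticulum stress were higher as well. B cells enlarge this compartment as they turn into antibody-secreting plasma cells, and the unfolded protein response matches its chaperones to load. All 13 tested plasma cell genes lay above the median of all genes (list median 0.78), and 4 were called (30.8%, against 2.25% of all genes). IRF4, a transcription factor needed for plasma cells, stood at 7.06 FPKM in the idelalisib-resistant and 23.5 FPKM in the ibrutinib-resistant library (difference 1.60). TNFRSF17, the survival receptor BCMA, stood at 7.70 and 20.6 FPKM (1.31), and DERL3, a component of ER-associated degradation, at 6.27 and 18.1 FPKM (1.40). The chaperone gene HSP90B1 stood at 158 and 362 FPKM (1.19) and fell just short of the call after scaling (0.99). XBP1, the factor that drives the secretory programme, differed less (307 and 431 FPKM, 0.49), as did the joining chain gene IGJ (931 and 1089 FPKM, 0.23).

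The amino acid and unfolded protein stress list had a median of 0.69, with 21 of 24 genes above the median of all genes. Called higher were 7 of 24 (29.2%, against 2.25% of all genes). After scaling, 3 of the 7 remained. These were PPP1R15A, which directs the removal of the stress mark on eIF2alpha (13.4 and 49.1 FPKM, 1.80), the pseudokinase gene TRIB3 (45.5 and 116 FPKM, 1.33) and the co-chaperone gene DNAJB9 (9.35 and 23.4 FPKM, 1.24). HSPA5, the main ER chaperone BiP, stood at 168 and 369 FPKM (1.13). Of genes known for amino acid supply, the cystine transporter gene SLC7A11 stood at 8.81 and 17.2 FPKM (0.89) and PSAT1, an enzyme of serine synthesis, at 0.79. The 3 members below the median of all genes belong there as well: the asparagine synthetase gene ASNS (102 and 105 FPKM, 0.03), the transporter gene SLC7A5 (44.6 and 47.2 FPKM, 0.08) and PSPH, another enzyme of serine synthesis (-0.35). ATF4, a regulator of amino acid supply genes, stood at 436 and 537 FPKM (0.30).

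Families of vesicle transport between ER and Golgi, a list added after the values were seen, had a median of 0.69. Called higher were 7 of 44 genes (15.9%, against 2.25% of all genes) and none was called lower. After scaling 4 of the 7 were called. They were ARFGAP3 (29.8 and 89.2 FPKM, 1.55), the COPII coat gene SEC24D (11.5 and 35.3 FPKM, 1.53), ARF4 (46.3 and 125 FPKM, 1.41) and the cargo receptor gene TMED2 (97.3 and 240 FPKM, 1.30). The ER translocon and signal peptidase families, also added after the values were seen, had 2 of 23 genes called (SSR1 and TRAM1, 8.70%, median 0.60) and none after scaling. In both families most members were moderately higher, so the medians carry more than the counts.

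MYC and most of its listed targets lay below the general shift. MYC, the transcription factor that Burkitt lymphoma carries next to an immunoglobulin enhancer, stood at 192 FPKM in the idelalisib-resistant and 117 FPKM in the ibrutinib-resistant library (difference -0.71). Among 29 tested MYC targets, 27 lay below the median of all genes, and the list median was -0.32. Called lower were 2 of the 29 (6.90%, against 0.636% of all genes). They were ODC1, the first enzyme of polyamine synthesis (161 and 73.9 FPKM, -1.12), and NOP58, a core protein of the box C/D snoRNA complex (56.2 and 24.6 FPKM, -1.16). After scaling, the nucleolar genes RRP12 (-1.08), MRTO4 (-1.08) and NOP16 (-1.01) joined them, which made 5. NOP58 lies in a stretch of chromosome 2 that is lower as a whole, and without that stretch 1 call remained. The chaperonin gene HSPD1, on the raised side of the same chromosome, was one of only 2 targets above the median (176 and 244 FPKM, 0.46), with FBL as the other (0.20).

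MIR17HG, the host transcript of a microRNA cluster that MYC activates, stood at 10.1 and 2.74 FPKM (-1.57). It is one of 2 calls, both lower, among 17 nuclear and snoRNA host RNAs (11.8%, against 0.636% of all genes). SNHG12 (22.9 and 11.0 FPKM) is the other, and the list median was -0.08. The 35 spliceosome genes held no call (median -0.04). Cytosolic ribosomal protein genes, which are counted apart from biogenesis factors, followed the general shift (78 genes, median 0.23). RPL21 was their single call, at 0.004 FPKM in the idelalisib-resistant and 8.91 FPKM in the ibrutinib-resistant library, and is uncertain because many near-identical copies share its reads.

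The proliferation list held no call in 29 genes (median 0.26). CDKN1A, the cell cycle inhibitor p21, stood at 55.1 and 128 FPKM (1.198). With TP53INP1 (14.2 and 30.4 FPKM, 1.04) and DDB2 (14.1 and 29.7 FPKM, 1.02) it made 3 calls among 19 p53 targets (15.8%, against 2.25% of all genes). The list median was 0.47, and 1 of the 3, CDKN1A, remained called after scaling. Of the 19, 16 lay above the median of all genes, among them ZMAT3 (0.78), MDM2, the ligase that degrades p53 (0.49), and BAX, a death activator (0.47). The 3 below it were BTG2 (141 and 115 FPKM, -0.30), GADD45A (42.9 and 36.0 FPKM, -0.25) and the death receptor gene FAS (-0.15).

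In lists of pathways that could replace the blocked kinases, calls were small in number but not always in share. Of 25 PI3K, AKT and mTOR genes, 2 were called higher (8%, against 2.25% of all genes), and neither after scaling. They were EIF4EBP1, a translation repressor that mTOR controls (14.3 and 31.3 FPKM, 1.08), and PIK3R5, a regulatory subunit of PI3K gamma (2.59 and 6.38 FPKM, 1.04). The BCL2 family held no call in 14 genes (median 0.34). Caspases and inhibitors of apoptosis held 1 call each way in 19 genes (5.26% each): CASP1 was higher (10.7 and 23.3 FPKM, 1.06, not after scaling) and CASP8 lower (10.4 and 4.47 FPKM, -1.06). CASP8 lies in the same chromosome 2 stretch as NOP58.

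IRF4 was also the single call among 18 NF-kB targets (5.56%, median 0.29). Of 6 receptor tyrosine kinase genes tested, FGFR1 was higher (0.917 and 5.55 FPKM, 1.77) and CSF1R lower. Each is 16.7% of the 6, against 2.25% of all genes called higher and 0.636% lower. FGFR1 reached 5 FPKM in the ibrutinib-resistant library alone and CSF1R in the idelalisib-resistant library alone, so the minimum itself favoured these calls. GAB2, an adaptor that links receptors to PI3K, stood at 6.97 and 26.2 FPKM (1.77) and was chosen after its value was seen. THRSP, which lies in the same region of chromosome 11, was among the 15 highest genes (0.564 and 9.50 FPKM, 2.75).

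Immediate early genes of the MAPK route included one of the strongest losses. JUN, a subunit of the AP-1 factor, stood at 14.002 FPKM in the idelalisib-resistant and 1.72 FPKM in the ibrutinib-resistant library (-2.46). ETV5, an ETS factor induced by ERK, was higher (2.13 and 6.92 FPKM, 1.34), and these were the 2 calls among 8 tested genes (median -0.19). Each is 12.5% of the list, against 2.25% of all genes called higher and 0.636% lower. ETV5 reached 5 FPKM in the ibrutinib-resistant library alone and JUN in the idelalisib-resistant library alone, so the minimum itself favoured these calls. In DOHH2 the list had a median of -1.10 under the same contrast. There 4 of 8 tested genes were called lower, against 0.158% of all genes, and none higher.

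Metabolic lists held few calls in number. In the fatty acid and the glycolysis list, 3.45% of genes each were called higher, against 2.25% of all genes. ELOVL6, a fatty acid elongase, was the single call among 29 cholesterol and fatty acid genes (2.16 and 7.01 FPKM, 1.34), whose median was 0.47. Hypoxia and glycolysis genes had a median of 0.20, with DDIT4, an mTOR inhibitor, as the single call in 29 (17.0 and 39.7 FPKM, 1.17), which was lost after scaling. The respiratory chain list had 1 lower call in 61 genes, NDUFB3 (37.8 and 17.4 FPKM, -1.07), again from the chromosome 2 stretch. Drug transport and metabolism (7 genes), homing and adhesion (12), cytokines and their receptors (20), BMP and ID genes (8), Wnt genes (3) and heat shock and redox genes (22) held no call. After scaling, the chaperone gene HSPA8 was called lower in the last of these (339 and 175 FPKM, -1.15). NFIL3, a repressor of clock genes, was the single call among 4 clock genes (4.48 and 12.4 FPKM, 1.29). It is 25% of the list, against 2.25% of all genes. NFIL3 reached 5 FPKM in the ibrutinib-resistant library alone, so the minimum itself favoured a higher call. HIST1H1E was the single call among 17 chromatin regulators mutated in lymphoma (5.88%, against 0.636% of all genes). It was lower, as were most histone genes described below. Metallothioneins, metal-binding proteins whose sequences are close to each other, formed a list added after the values were seen. Of its 13 genes, 10 stood at 0 in each library and 3 were tested. All 3 were called higher, against 2.25% of all genes: MT1F (0.132 and 5.45 FPKM, 2.51), MT2A (41.4 and 100.3 FPKM, 1.25) and MT1X (4.82 and 12.4 FPKM, 1.203). MT1F and MT1X reached 5 FPKM in the ibrutinib-resistant library alone, so the minimum itself favoured higher calls.

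**Figure D3:**
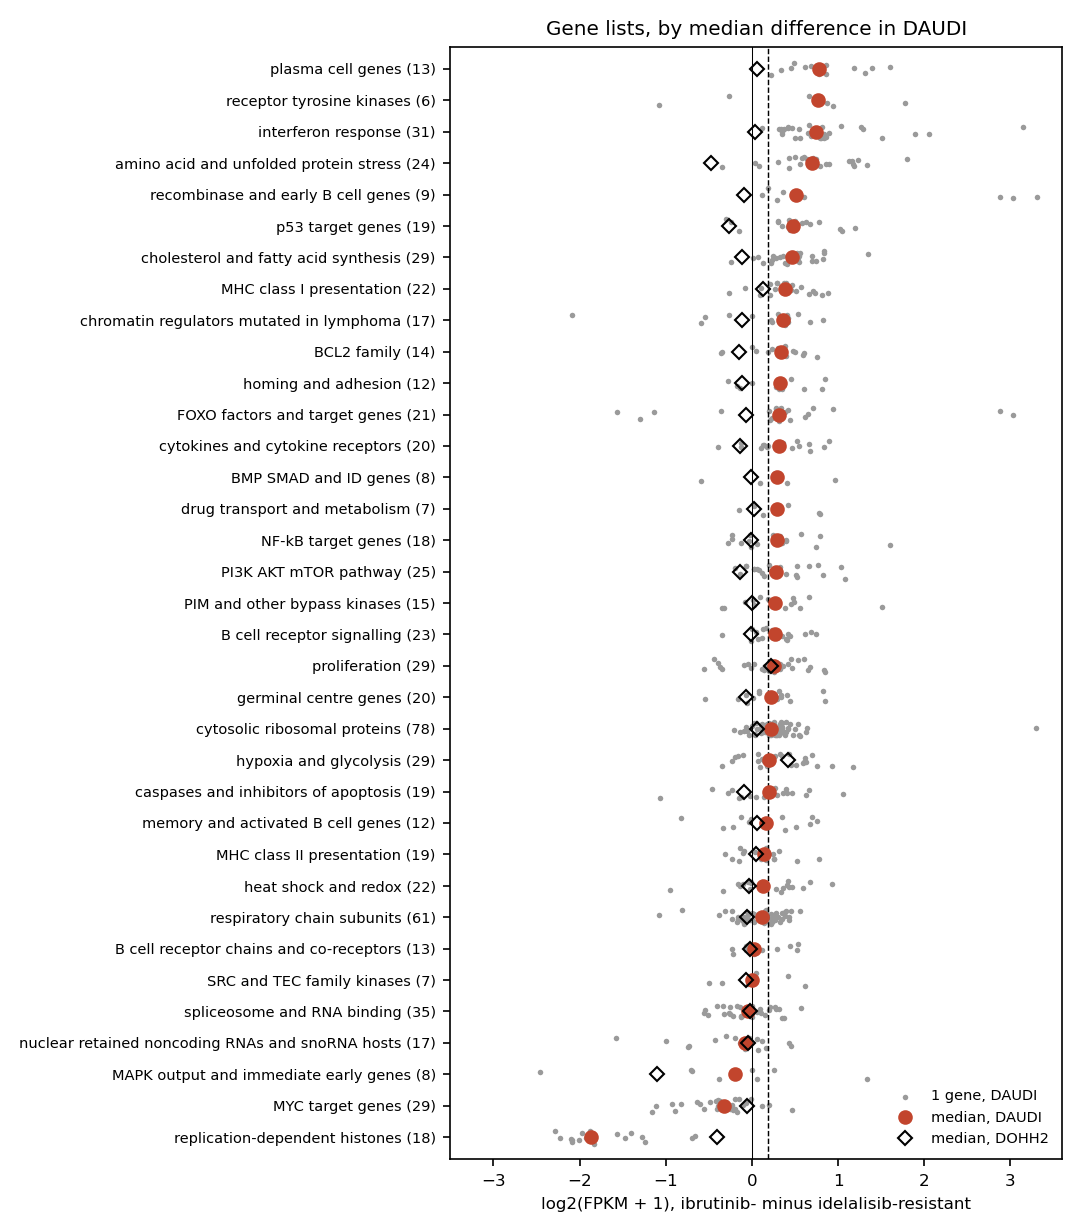
Differences between the resistant libraries for gene lists with at least 6 tested genes (number of genes in brackets). Grey points are single genes and red points list medians in DAUDI, diamonds are list medians in DOHH2 over the genes tested there where these are 6 or more, and the dashed line is the median of all genes (0.19). Plasma cell, interferon and stress genes stand to the right and MYC targets (-0.32) and histones (-1.87) to the left.

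Other genes among the 15 highest had no list. CPNE2, a copine that binds membranes, stood at 4.91 and 41.7 FPKM (2.85), SQRDL, a mitochondrial sulfide oxidase, at 7.26 and 42.7 FPKM (2.40) and WIPI1, an autophagy protein, at 3.09 and 16.9 FPKM (2.13). TUSC3, an oligosaccharyltransferase subunit, stood at 2.02 and 16.2 FPKM (2.51). The phosphatase gene PTPRG (0.128 and 5.35 FPKM) and TMEM178B (0.281 and 5.65 FPKM) were near 0 in the idelalisib-resistant library and reached only a low level in the other.

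At the lower end, COBLL1 stood at 6.82 FPKM and NLGN1, a synaptic adhesion protein, at 7.04 FPKM in the idelalisib-resistant library, and both were listed at 0 in the ibrutinib-resistant one. MYO1D, an unconventional myosin, stood at 17.8 and 1.94 FPKM (-2.68) and the hormone gene PRL at 10.7 and 1.77 FPKM (-2.08). GAS6-AS1, an RNA antisense to GAS6, stood at 10.6 and 0.386 FPKM (-3.07), while GAS6 was near 0 in both (0.058 and 0.070 FPKM). The kit keeps the strand, but the sources used here do not say whether the authors' quantification used it.

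The largest block of lower genes was made of RNAs that mostly end without a poly(A) tail. Replication-dependent histone mRNAs end in a stem-loop, and small Cajal body RNAs, RPPH1 (the RNA of RNase P) and TERC (the RNA of telomerase) are processed to ends without one. Of 54 replication-dependent histone genes in the data 18 were tested, and 16 of these were called lower (88.9%, against 0.636% of all genes). Their median was -1.87, and the remaining 2, HIST3H2A (-0.69) and HIST1H2BK (-0.66), were below 0. Most of the 18 reached 5 FPKM in the idelalisib-resistant library alone, so the minimum itself favoured lower calls. Over all 54, FPKM summed to 256 in the idelalisib-resistant and 68.2 in the ibrutinib-resistant library. The linker histone gene HIST1H1E stood at 11.0 FPKM in the idelalisib-resistant and 1.82 FPKM in the ibrutinib-resistant library (-2.09), and HIST1H4C at 10.5 and 1.67 FPKM (-2.10). Histone genes within a class have close sequences, so single members are uncertain.

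Of 26 other RNAs of this kind, listed after the values were seen, 6 were tested and all 6 were called lower (median -2.18). SCARNA2, SCARNA7, SCARNA9 and TERC reached 5 FPKM in the idelalisib-resistant library alone, so the minimum favoured lower calls here as well. Over all 26, FPKM summed to 1646 in the idelalisib-resistant and 295 in the ibrutinib-resistant library. RPPH1 stood at 147 and 34.2 FPKM (-2.07) and SCARNA7 at 36.3 and 4.39 FPKM (-2.79). Of 50 genes called lower, 18 carry histone symbols and 6 are the tested RNAs of that list, and without them 26 genes remain. Polyadenylated histone genes were lower by much less: 6 tested genes, a list added after the values were seen, had a median of 0.05 and no call. All 6 lay below the median of all genes. H2AFZ stood at 198 and 225 FPKM (0.18) and H3F3B at 64.6 and 65.8 FPKM (0.03).

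Short RNAs took a smaller share of the same library. Genes whose isoforms are all under 300 nt took 6.73% of its FPKM, against 16.9% in idelalisib-resistant DAUDI and 14.02% to 19.2% in the other libraries. Of 100 such genes at 5 FPKM or more in either DAUDI library, 64 were lower by 1 or more and 24 higher by as much (median -2.55). In DOHH2, of 83 such genes, 30 were lower and 26 higher (median -0.14). In DOHH2 the histone list also lay below 0, by less (median -0.40, 0 of 18 called). The part of RNA selection or library preparation in these losses was not tested.

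**Figure D4:**
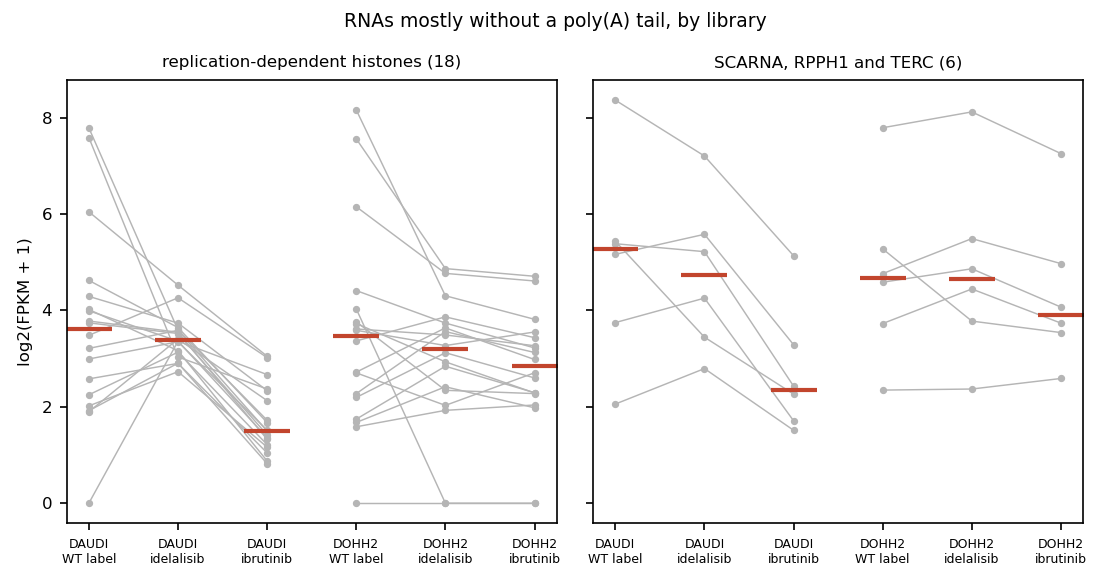
Levels, in log2(FPKM + 1), of 18 replication-dependent histone genes (left) and 6 small RNAs (SCARNA genes, RPPH1 and TERC, right) in each of the 6 libraries. Grey lines join the values of a gene within the libraries labelled with a line, and red bars are medians. Ibrutinib-resistant DAUDI has the lowest median in both panels.

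Part of the comparison was arranged along chromosomes. On chromosome 2, the 26 tested genes from C2orf69 to LANCL1 (hg19, chr2:200775979-211341499, 10.6 Mb) all lay below the median of all genes, 25 of them below 0. Their median difference was -0.63, a median FPKM ratio of 0.618, and 6 were called lower: ADAM23, FASTKD2, WDR12, NOP58, NDUFB3 and CASP8. From C2orf69 to CREB1, 21 of 21 genes were below 0, with a median FPKM ratio of 0.570. ADAM23 had the largest difference (11.4 and 1.63 FPKM, -2.23). Levels returned to the general shift further on, where 12 genes from ATIC to NHEJ1 had a median of 0.10.

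Directly before it, the 21 genes from ZC3H15 to MARS2 were high, with a median of 0.59 and a median FPKM ratio of 1.53, and 17 of them lay above the median of all genes. MFSD6 (8.98 and 19.97 FPKM, 1.07) was called there, though not after scaling (0.88), and SF3B1, a splicing factor, stood at 82.0 and 116 FPKM (0.50). The other 447 genes of the chromosome had a median of 0.20. In DOHH2 the same contrast gave medians of -0.05 in the lower and -0.01 in the higher stretch. The bounds of both stretches were set after the values were seen.

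Chromosome 7 was lower as a whole. Its 401 tested genes had a median of -0.05, and 77.6% of them lay below the median of all genes. On the other chromosomes this share ran from 36.6% to 53.4% and the median from 0.17 to 0.28. The median FPKM ratio was 0.963 on chromosome 7 against 1.13 to 1.23 elsewhere. None of its genes was called lower, so this is a small difference shared by many genes. In DOHH2 its median was -0.03, within the range of the other chromosomes (-0.08 to -0.01).

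Over 7405 runs of 20 neighbouring tested genes, the median difference ran from -1.03 to 0.59. Runs at -0.5 or less numbered 28, of which 19 were on chromosome 2 and 9 over the histone cluster of chromosome 6. Runs at 0.5 or more numbered 20, of which 14 were on chromosome 2. In DOHH2 the runs spanned -0.22 to 0.18. DNA was not measured, so copy number cannot be told apart from other sources of a regional difference.

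**Figure D5:**
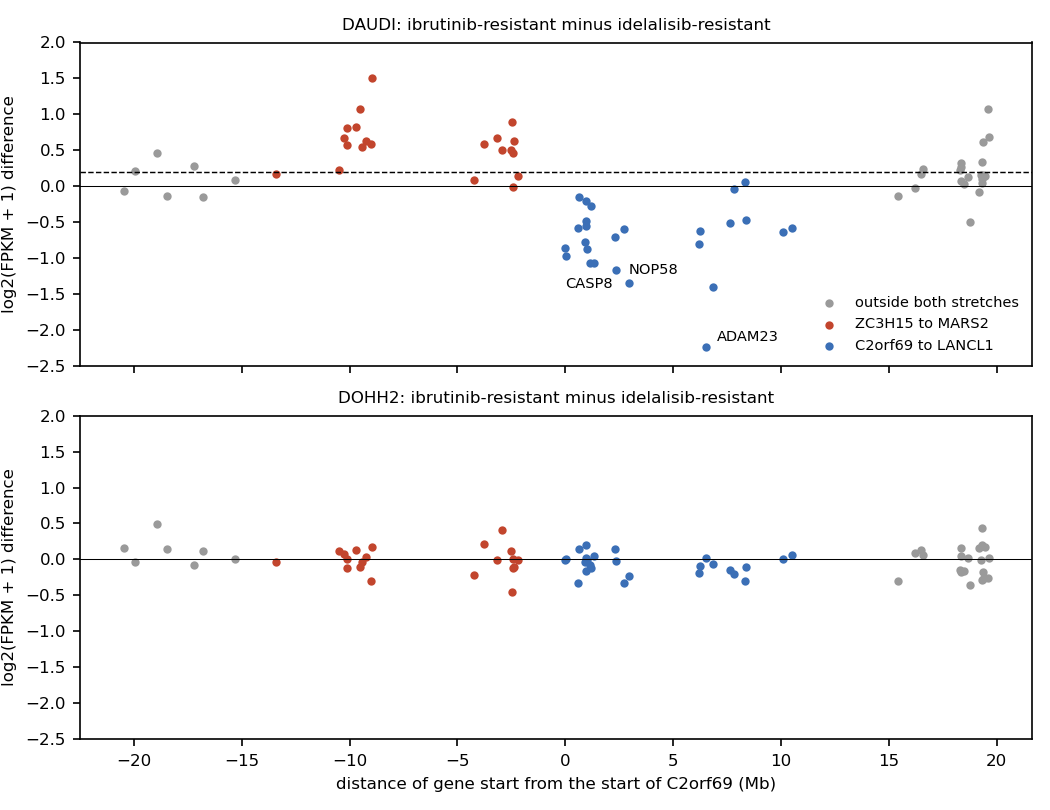
Difference between the resistant libraries of DAUDI (top) and DOHH2 (bottom) for tested genes of chromosome 2 from ZNF385B to CHPF, a part of its long arm. The x axis is the distance of the gene start from the start of C2orf69 in Mb. Red marks ZC3H15 to MARS2 (median 0.59) and blue C2orf69 to LANCL1 (median -0.63). The dashed line is the median of all genes in DAUDI (0.19).

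Few of the DAUDI calls were shared by DOHH2, where few genes were called. There the same contrast called 22 of 7611 genes higher (0.289%) and 12 lower (0.158%), with a median of -0.05. Of 6909 genes tested in both lines, 99 were called higher in DAUDI and 12 in DOHH2, and 1 was shared, which is 1.01% of the DAUDI and 8.33% of the DOHH2 list. That gene was IGLL1, at 3.19 and 11.2 FPKM in idelalisib-resistant and ibrutinib-resistant DOHH2 (1.54). Of 32 called lower in DAUDI and 6 in DOHH2 none was shared, and no gene was called in opposite directions. With only 12 higher and 6 lower DOHH2 calls among 6909 genes, no more than these could be shared or opposite. The small overlap therefore cannot show whether the lines differ. Across those genes the differences had a Pearson r of -0.02 and a Spearman rho of -0.06.

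RAG1 (0.199 and 0.148 FPKM) and RAG2 (0.077 and 0.040 FPKM) were near 0 in both resistant DOHH2 libraries, as was PARP14 (0.229 and 0.431 FPKM). Only 8 interferon genes reached the level tested in DOHH2, with a median of 0.04. Genes called higher in DAUDI had a DOHH2 median of -0.03, and genes called lower one of -0.21. These medians are over all called genes, of which 99 of 177 higher and 32 of 50 lower were tested in DOHH2. The rest lay below the level tested there. Some, such as TUSC3 and NLGN1, stood at 0 in both resistant DOHH2 libraries and so add a difference of 0. The medians therefore do not describe the genes tested in DOHH2 alone. The medians of the histone list and of the MAPK output list, as given above, also lay below 0 in DOHH2.

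Few genes exchanged their main isoform between the DAUDI libraries. Of 2426 genes at 10 FPKM or more in both with several isoforms, 3 had an isoform whose share of the gene differed by 50 percentage points or more (0.124%). In RAP1GDS1, an exchange factor for small GTPases, the isoform of 3758 nt took 83.2% in idelalisib-resistant and 0.011% in ibrutinib-resistant cells. The isoform of 3761 nt took 0.558% and 82.6%. In ARPC4, a subunit of the actin-nucleating ARP2/3 complex, an isoform of 1460 nt went from 1.95% to 81.2%. The exchanged isoforms of each of these genes are close in length, and without read counts the error of these estimates is unknown.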

How the data were processed

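PolyA RNA of 6 cultures was sequenced with a directional kit, 1 library each. Per the submitters' processing notes the authors used bcl2fastq, cutadapt, TopHat2 and Cufflinks with hg19; for none of them do the sources used here give a version. FPKM of 43490 isoforms stand in the deposited tables. Per the file headers these also hold a coverage signal, which grows with depth. Counts were not used here, so absolute depth, intervals and floors are unknown.

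FPKM were summed per gene symbol (23844 genes). Left out were 528 isoforms without a name and 10 genes with a failed estimate. Genes at 5 FPKM or more in a library and with an isoform of 300 nt or more were tested (7864), on log2(FPKM + 1), with Python 3.11.15 and pandas 2.3.3. Relative depth is the median coverage per FPKM. The script was checked on simulated data. Some genes are not reported here by name. The comparison, 41 gene lists and the named genes were chosen with earlier results of these data known, and 5 lists were added after their values were seen. Named by rule were the drug targets, the 15 highest and 15 lowest genes that are called also after scaling (without small RNAs and unnamed loci), the 4 most different members of each list, 6 isoforms, and genes shared with DOHH2; other members are given to show the rest of a list. Tried as alternatives were other scalings, pseudocounts, minimum levels, no length minimum and the most abundant isoform alone.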

Additional observations from a re-analysis of the deposited data

Results flagged for a closer look

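The amino acid and unfolded protein stress list differed in direction between the lines under the same contrast of ibrutinib-resistant minus idelalisib-resistant cells. Its median was 0.69 in DAUDI (24 genes tested, 7 called higher, none lower) and -0.47 in DOHH2 (27 genes tested, none called higher, 1 lower). The lowest DOHH2 member was CHAC1, a glutathione-degrading enzyme, at 12.9 and 4.42 FPKM in idelalisib-resistant and ibrutinib-resistant DOHH2 (-1.36), against 10.6 and 17.1 FPKM in DAUDI (0.64). TRIB3 stood at 45.6 and 28.1 FPKM in DOHH2 (-0.68) and at 45.5 and 116 FPKM in DAUDI. With 1 library of each line and drug, the difference between the lines was not tested.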

How the results depend on the processing

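No paired analysis was possible because each group has 1 library and the labels carry no replicate numbers. No library was left out, since each side has 1. Without counts, the error of a low gene is unknown, and the 2-fold call sets no error rate.

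The count of genes called higher (177) was 98 with median of ratios, 107 with the upper quartile and 63 with a pseudocount of 5. The count called lower (50) was 27 with a pseudocount of 5, 96 with a minimum of 1 FPKM or none, 29 with a minimum of 10 FPKM and 114 with no length minimum. Without histone, SCARNA, RPPH1 and TERC genes, an alternative chosen after seeing the data, it was 26. Stress genes called higher (7) were 3 with median of ratios. MYC targets called lower (2) were 5 with median of ratios, 4 with the upper quartile and 1 without both chromosome 2 stretches and chromosome 7, also chosen after seeing the data. Histones called lower (16) were 10 with a pseudocount of 5, 34 with a minimum of 1 FPKM or none and 8 with a minimum of 10 FPKM. Genes with an isoform share difference of 50 points (3) were 15 at 30 points, 9 at 5 FPKM and 1 at 20 FPKM. The gene shared with DOHH2 (1) became 2 with a pseudocount of 0.1 (IGLL1 and LINC00494) and 0 with a pseudocount of 5. By construction, the minimums and lengths change which genes are tested, the pseudocount and scaling the value of each gene. Recombinase (3), interferon (5 to 8 against 7) and plasma cell (3 or 4 against 4) calls stayed within 1.5 times in every planned setting. Of 39 list medians, 7 changed sign with median of ratios, all between -0.2 and 0.2 before: receptor chains, SRC and TEC kinases, memory genes, MHC class II, Wnt, heat shock and respiratory chain. With the upper quartile 6 of these changed sign, memory genes being the exception. With a minimum of 1 FPKM the medians of MAPK output and of receptor tyrosine kinases (0.77 over 6 genes before) changed sign, and with a minimum of 10 FPKM that of memory genes. IGLL1 ranked first by difference (3.32, RPL21 3.30), but with a pseudocount of 0.1 RPL21 (6.43), RAG1 (4.02) and RAG2 (3.84) stood above it (3.66), and with median of ratios it lay level with RPL21 (3.12 and 3.13). No named gene that was called reversed.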

Other observations

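Several genes outside the lists were picked after their values were seen, so their calls do not describe a group. Some of them have roles in ER protein folding and stress. ERN1, the stress sensor IRE1 alpha, stood at 16.03 FPKM in the idelalisib-resistant and 40.9 FPKM in the ibrutinib-resistant library (difference 1.30, and 1.11 after scaling). The secreted stress factor gene MANF stood at 71.0 and 157 FPKM (1.14), and P4HB, a disulfide isomerase, at 130 and 276 FPKM (1.08). SEL1L, an adaptor of ER-associated degradation, stood at 28.1 and 62.5 FPKM (1.13), and HYOU1, an ER chaperone, at 44.8 and 94.9 FPKM (1.07). The last 4 were not called after scaling. ERP44, an ER thiol protein, was not called (20.3 and 29.95 FPKM, 0.54).

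Others, picked in the same way, encode enzymes of nucleotide sugar synthesis, of which no full list was counted. UAP1 (7.28 and 18.2 FPKM, 1.22) and PGM3 (6.62 and 16.3 FPKM, 1.18) act in the synthesis of UDP-N-acetylglucosamine. GMPPA (7.73 and 17.5 FPKM, 1.08) and GMPPB (8.44 and 17.9 FPKM, 1.001) belong to GDP-mannose synthesis. After scaling, UAP1 alone among these 4 was called (1.03).

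Other single genes with large differences, also chosen after their values were seen, were the secreted protease inhibitor gene SLPI (54.6 and 216 FPKM, 1.96), the arginase gene ARG2 (30.1 and 91.4 FPKM, 1.57) and the peptide hormone gene C12orf39 (8.64 and 57.8 FPKM, 2.61). MYB, a transcription factor of blood progenitors, stood at 4.05 and 13.4 FPKM (1.51). TP63, a p53 family member, was lower (5.55 and 0.806 FPKM, -1.86). In DOHH2 their differences lay between -0.40 (TP63) and 0.15 (ARG2).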
